A study of Mus musculus with 21 samples.

Results

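The genes of homologous recombination, the Fanconi pathway and the DNA damage checkpoint are described here as a set of 39 mouse genes. They were chosen by name from the 24047 genes of the read count table, all 39 were found, and all 39 had enough reads to be tested in both experiments. The RNA came from SMB21, a single cell line of mouse sonic hedgehog (SHH) medulloblastoma, a tumour of the cerebellum. In the drug experiment the cells had quisinostat (JNJ), an inhibitor of histone deacetylases (HDACs), or the control DMSO, the solvent, each for 2 h or for 24 h. In the hairpin experiment the cells had a virus that expresses a short hairpin RNA, aimed at luciferase (shLuc, the control), at Hdac1 (shHdac1) or at Hdac2 (shHdac2), and the cells of all 3 hairpin groups went through puromycin. There are 21 libraries, 3 for each of 7 groups. The labels do not tell if the libraries of a group were grown as separate cultures, so a p-value here covers only the spread between libraries, which may be technical.

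Homologous recombination mends a broken DNA duplex by copying the intact sister: the ends are trimmed to single strands by MRE11, RAD50, NBS1 and CtIP, and BRCA1, PALB2 and BRCA2 then help a recombinase to pair the strand with its copy. The Fanconi core complex places ubiquitin on FANCD2 and FANCI, which starts the repair of DNA strands that are linked to each other. The kinases ATR and CHK1, with claspin, TOPBP1 and the TIMELESS-TIPIN pair, watch over the replication fork, and ATM and CHK2 respond to breaks. Most of these genes are transcribed more strongly in cells that enter S phase, and SHH medulloblastoma grows from dividing granule neuron progenitors.

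The libraries held 23094799 to 39341784 counted reads. The hairpins lowered their targets: Hdac1 stood at 94.7 ± 5.86 CPM (read counts scaled to the depth of the library, mean ± SD, n = 3) in shLuc and 30.6 ± 1.99 CPM in shHdac1, and Hdac2 at 318 ± 23.1 CPM in shLuc and 50.3 ± 3.08 CPM in shHdac2. A list of 14 markers of SHH medulloblastoma and granule progenitors summed to 1730 to 3130 CPM per library. Of the markers of other cell types, 8 microglial and blood genes summed to 1.05 to 3.45 CPM, with Aif1, Cd3e, Itgam and Cx3cr1 free of counts in 2 or more groups. The 10 endothelial and fibroblast markers summed to 10.9 to 48.2 CPM, the 7 oligodendrocyte markers to 44.3 to 278 CPM and the 6 astroglial markers to 107 to 475 CPM.

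Levels within the set differed widely. Per kilobase of transcript, Topbp1, which activates ATR, and Tipin, the small partner of TIMELESS, had the highest levels in DMSO at 24 h, with 88.4 ± 7.5 and 82.3 ± 8.32 CPM per kb (SD, n = 3). Their ranges over the 3 libraries overlapped, from 80.0 to 94.4 and from 72.9 to 88.8 CPM per kb. Wee1, the kinase that holds back entry into mitosis, followed at 35 ± 0.844 CPM per kb, and its libraries lay below those of both. The lowest levels were in Palb2, which bridges BRCA1 and BRCA2 (5.09 ± 0.938 CPM per kb), Brca2 (4.83 ± 0.247) and the core complex gene Fancc (4.04 ± 1.08), and the ranges of these 3 genes overlapped. The other 33 genes lay between 5.87 CPM per kb (Fancb) and 28.4 CPM per kb (Timeless).

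After 24 h with JNJ, most of the set fell and no member rose. 29 of 39 genes were lower than in DMSO at 24 h (edgeR's quasi-likelihood test, adjusted p under 0.05 over all 14467 genes tested), which is 74.4% of the set, where 15.1% of all genes were called lower and 18.1% higher. The median log2 change of the set was -0.98, against 0.01 over all genes. Of the genes called, 19 fell by at least 2-fold, 7 of these by at least 3-fold and 3 by at least 4-fold. For 32 of 39 genes the JNJ and DMSO libraries did not overlap, a property of 55.5% of all genes. In bulk RNA, fewer cells of a type and less RNA per cell cannot be told apart. Of the marker lists, all 3 astroglial genes tested and 5 of 14 granule progenitor genes also fell at 24 h, among them the astroglial genes Slc1a3 (log2 -0.98) and S100b (log2 -3.48) and the granule lineage genes Atoh1 (log2 -1.08) and Barhl1 (log2 -1.62). Of the oligodendrocyte markers 1 of 4 tested rose, Cspg4 (log2 1.24). Of 8 endothelial and fibroblast markers 2 rose, Kdr (log2 3.88) and Col1a1 (log2 4.32), and 1 fell, Col3a1 (log2 -2.08), and the 1 microglial and blood marker tested was not called. The summed astroglial level was 107 to 142 CPM with JNJ and 222 to 298 CPM in DMSO at 24 h. That of the oligodendrocyte markers was 65.9 to 110 CPM with JNJ and 44.3 to 77.1 CPM in DMSO, and that of the endothelial and fibroblast markers 23.8 to 37 CPM with JNJ and 12.2 to 25.3 CPM in DMSO. The part of these markers in the result was not tested.

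**Figure D1:**
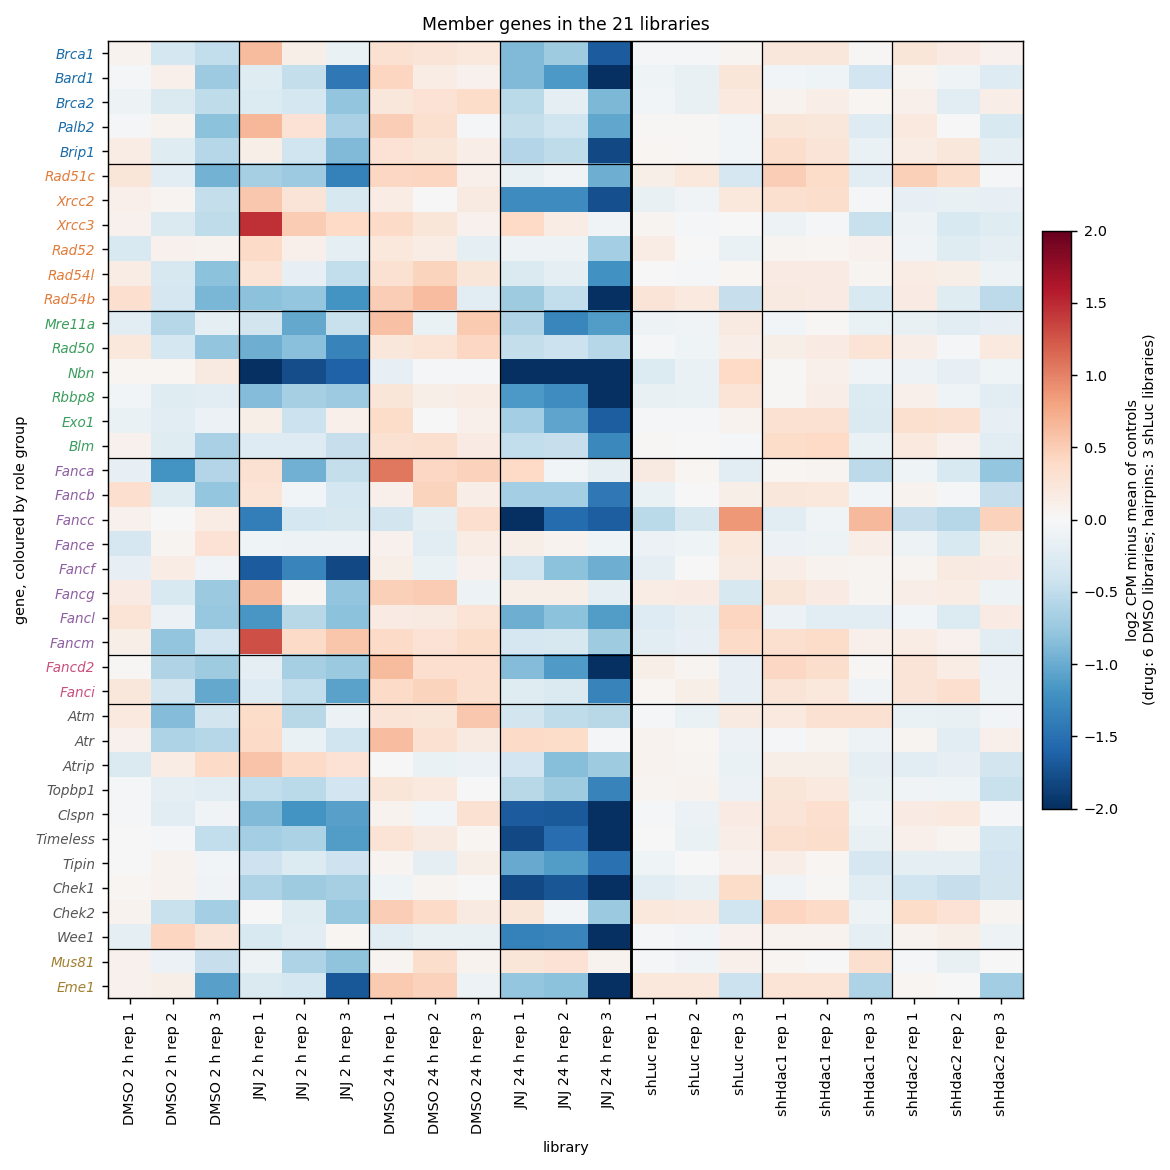
Heat map of the 39 genes in the libraries of both experiments, one row per gene grouped by role, one column per library. Colour is the log2 difference of a library's CPM from the controls of its experiment, and the scale ends at 2 on either side. The columns of JNJ at 24 h are blue for nearly all genes, and replicate 3 is the deepest, with a median of -1.29 over the set.

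The extent of the fall differed between the 3 JNJ libraries. The median over the 39 genes was taken as log2 against the mean of the DMSO libraries of both times. It was -0.55 in JNJ 24 h replicate 1, -0.68 in replicate 2 and -1.29 in replicate 3. On this scale DMSO 24 h replicates 1, 2 and 3 lay at 0.27, 0.24 and 0.13. Replicate 3 also lay lowest for 28 genes of the replication helicase and DNA polymerases, at -1.63 against -1.10 and -1.04. Without replicate 3, 18 of the 29 calls were made and no member was called higher, and the median of the set was -0.79 against DMSO at 24 h. Without any other library of these groups the count was 20 to 26, all lower. Scaling by library totals alone moves the median of all genes to 0.17 at 24 h, and 19 members were then lower and none higher.

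**Figure D2:**
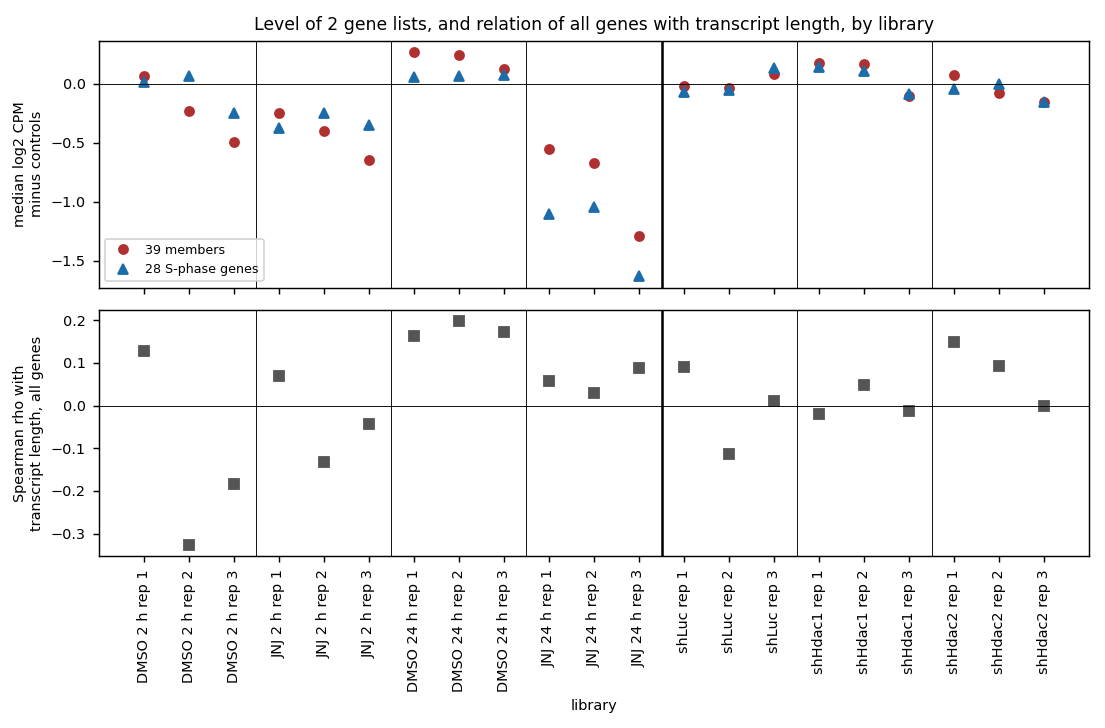
Upper panel, median log2 difference from the controls of the same experiment (DMSO or shLuc) over the 39 genes (circles) and over 28 S-phase helicase and polymerase genes (triangles), and lower panel, Spearman's rho across all genes of a library's deviation with transcript length, for each of the 21 libraries. The DMSO controls are those of both times. For the 28 S-phase genes the JNJ 24 h libraries lie lowest, from -1.63 to -1.04. For the 39 genes they run from -1.29 to -0.55 and JNJ 2 h replicate 3, at -0.65, lies among them, with DMSO 2 h replicate 3 at -0.495.

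All 6 genes of break sensing and end resection fell at 24 h, with a median log2 of -1.29. Nbn, which encodes NBS1 of the MRE11 complex, had 42.4, 46.4 and 46.3 CPM in the DMSO libraries and 11.1, 10.4 and 5.56 CPM in the JNJ libraries. Every JNJ library was far below every DMSO library, and Nbn was the member with the largest fall (log2 -2.31, SE 0.257, 4.97-fold lower, adjusted p = 8.93e-05). Rbbp8, which encodes the resection factor CtIP, had 76.5, 69.9 and 71.6 CPM with DMSO and 29.0, 27.2 and 14.9 CPM with JNJ. Its groups lay far apart, with replicate 3 again the lowest (log2 -1.61, SE 0.217, adjusted p = 0.000235). Rad50, the third gene of the MRE11 complex, had the highest p-value of this group, with 67.3, 69.6 and 76.3 CPM in DMSO and 41.3, 42.7 and 38.7 CPM with JNJ. Its groups did not overlap either (log2 -0.80, SE 0.225, adjusted p = 0.0162), but Rad50 missed the threshold once JNJ 24 h replicate 3 (adjusted p = 0.0576) or DMSO 24 h replicate 3 (0.0531) was left out. Mre11a, the nuclease of the complex (log2 -1.34, adjusted p = 0.0019), the nuclease gene Exo1 (log2 -1.24, adjusted p = 0.00164) and Blm, the Bloom helicase gene (log2 -0.97, adjusted p = 0.00636), fell as well.

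Of the 5 genes of BRCA proteins and their partners, 4 fell at 24 h (median log2 -1.08). Brca1 had 138, 134 and 129.8 CPM in DMSO and 60.9, 68.4 and 35.2 CPM with JNJ, with no overlap and with replicate 3 the lowest JNJ library (log2 -1.29, SE 0.257, adjusted p = 0.00239). Bard1, the partner with which BRCA1 forms a ubiquitin ligase, had 59.8, 49.2 and 47.0 CPM in DMSO and 23.9, 20.0 and 8.75 CPM with JNJ. The groups did not overlap, and the spread among the JNJ libraries was wide, with replicate 3 the lowest (log2 -1.56, SE 0.369, adjusted p = 0.00622). Brca2 fell by less (log2 -0.80, SE 0.208, adjusted p = 0.0103), and Brip1, a helicase that binds BRCA1, had a log2 change of -1.08 (adjusted p = 0.0225). Brip1 missed the threshold once JNJ 24 h replicate 3 (adjusted p = 0.0689) or DMSO 24 h replicate 1 (0.0558) was left out. Palb2 was not called: 22.3, 19.7 and 15.3 CPM in DMSO against 11.3, 11.9 and 7.65 CPM with JNJ. All 3 JNJ libraries were below all 3 DMSO libraries, yet the interval of the change (log2 ± 2 SE) ran from -1.57 to -0.21 and the adjusted p was 0.0594. With a replicate block, which pairs libraries of the same number, Palb2 was called (log2 -0.91, adjusted p = 0.00237), as it was with DESeq2 (0.0297), the compared groups alone (0.0173) or all 21 libraries in 1 fit (0.0177).

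In the strand exchange group 3 of 6 genes fell at 24 h (median log2 -0.75). Xrcc2, a paralog of the recombinase, had 43.4, 39.2 and 44.2 CPM in DMSO and 16.4, 16.4 and 11.6 CPM with JNJ, a tight fall in all 3 libraries (log2 -1.51, SE 0.243, adjusted p = 0.000671). Rad54b, a DNA translocase, had 34.8, 38.1 and 21.3 CPM in DMSO and 15.1, 17.6 and 6.03 CPM with JNJ. Replicate 3 was the lowest library in both groups, and the groups did not overlap (log2 -1.28, SE 0.394, adjusted p = 0.0244). Rad54b missed the threshold once JNJ 24 h replicate 3 (adjusted p = 0.0785), DMSO 24 h replicate 1 (0.0653) or DMSO 24 h replicate 2 (0.0691) was left out. Rad54b is also uncertain because 39.1% of its exon bases lie in exons of Fsbp on the same strand. Rad54l, the other translocase, had a log2 change of -0.83 (adjusted p = 0.0475). It missed the threshold with JNJ 24 h replicate 1 (adjusted p = 0.0602) or 3 (0.165) left out, and with DMSO 24 h replicate 1 (0.0861), 2 (0.0984) or 3 (0.0787) left out. Xrcc3, another paralog of the recombinase, had overlapping libraries: 17.8, 16.1 and 14.4 CPM in DMSO and 17.9, 15.0 and 13.0 CPM with JNJ (log2 -0.08, interval -0.64 to 0.49, adjusted p = 0.865). Rad52 (log2 -0.33, adjusted p = 0.29) and Rad51c (log2 -0.67, adjusted p = 0.119) were not called, but with the replicate block Rad51c was (log2 -0.72, adjusted p = 0.0062).

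The Fanconi core complex was mixed, with 5 of 8 genes lower at 24 h (median log2 -0.77). Fancc had 10.2, 11.6 and 16.7 CPM in DMSO and 2.41, 4.48 and 4.18 CPM with JNJ, so the groups did not overlap (log2 -1.80, SE 0.338, adjusted p = 0.0017). Fancl, the ubiquitin ligase subunit, had 20.5, 20.6 and 22.0 CPM in DMSO and 9.28, 10.3 and 8.36 CPM with JNJ. Its libraries were tight within both groups (log2 -1.17, SE 0.261, adjusted p = 0.0045), though 17.0% of its exon bases are shared with Vrk2 on the opposite strand. Fance, a core subunit that contacts FANCD2, had overlapping libraries, at 23.4, 18.9 and 24.3 CPM in DMSO and 24.0, 23.3 and 20.7 CPM with JNJ (log2 0.03, interval -0.35 to 0.41, adjusted p = 0.925). Fancb (log2 -1.12, adjusted p = 0.014) was called, but not once JNJ 24 h replicate 3 was left out (adjusted p = 0.0616). Fancf had a log2 change of -0.74 (adjusted p = 0.0237), and missed the threshold once JNJ 24 h replicate 2 (adjusted p = 0.0809) or 3 (0.0945), or DMSO 24 h replicate 1 (0.0715) or 3 (0.067), was left out. Fancm, the translocase that anchors the core complex, had -0.79 (adjusted p = 0.0333), and missed the threshold whichever of the 6 libraries was left out (adjusted p = 0.0538 to 0.121). Fancg (log2 -0.29, adjusted p = 0.539) and Fanca (log2 -0.61, adjusted p = 0.183) were not called, and Fanca was with the replicate block (log2 -0.59, adjusted p = 0.0163).

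Both genes of the FANCD2-FANCI pair were called lower at 24 h. Fancd2 had 172, 140.3 and 140.8 CPM in DMSO and 61.3, 50.9 and 26.8 CPM with JNJ. The JNJ libraries lay far below those of DMSO, and replicate 3 was the lowest (log2 -1.70, SE 0.292, adjusted p = 0.000972). Fanci had 60.9, 63.2 and 58.3 CPM in DMSO and 39.4, 38.1 and 18.5 CPM with JNJ, with replicate 3 far below the other JNJ libraries (log2 -0.92, SE 0.332, adjusted p = 0.0475). Fanci missed the threshold with JNJ 24 h replicate 2 (adjusted p = 0.0598) or 3 (0.163) left out, and with DMSO 24 h replicate 1 (0.0907), 2 (0.0877) or 3 (0.0825) left out. Its log2 change with JNJ 24 h replicate 3 left out was -0.65. Fanci shares 13.4% of its exon bases with Polg on the opposite strand.

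Among the 10 checkpoint kinases and mediators 8 fell at 24 h (median log2 -1.09). Clspn, which encodes claspin, the adaptor between ATR and CHK1, had 113, 103 and 132 CPM in DMSO and 34.0, 33.3 and 19.7 CPM with JNJ. Every JNJ library was far below every DMSO library (log2 -2.0, SE 0.208, adjusted p = 6.37e-05). Chek1, the kinase gene downstream of ATR, had 65.6, 72.6 and 69.0 CPM in DMSO and 19.9, 21.2 and 10.6 CPM with JNJ. Its DMSO libraries were tight and the groups lay far apart (log2 -2.0, SE 0.220, adjusted p = 8.16e-05). Atr itself had 95.5, 76.9 and 70.6 CPM in DMSO and 81.5, 80.7 and 61.4 CPM with JNJ, with overlapping libraries (log2 -0.12, interval -0.60 to 0.36, adjusted p = 0.738).

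The fork protection pair fell too, Timeless with a log2 change of -2.03 (SE 0.229, adjusted p = 9.38e-05) and Tipin with -1.20 (SE 0.157, adjusted p = 0.000211). Wee1 had -1.37 (adjusted p = 0.000602) and Topbp1 -0.98 (adjusted p = 0.00203). Atm, the break kinase gene, had a log2 change of -0.83 (adjusted p = 0.0294), and missed the threshold with JNJ 24 h replicate 1 (adjusted p = 0.0554), 2 (0.0787) or 3 (0.0893), or DMSO 24 h replicate 1 (0.0513) or 3 (0.0932), left out. Atrip, the partner of ATR, had -0.55 (adjusted p = 0.042) and missed the threshold when any library but JNJ 24 h replicate 1 was left out (adjusted p = 0.0673 to 0.138). Chek2, the kinase gene downstream of ATM, was not called (log2 -0.49, adjusted p = 0.191), but was with the replicate block (log2 -0.54, adjusted p = 0.0141).

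The genes of the MUS81-EME1 nuclease, which cuts joined DNA strands apart, had unlike values. Eme1 had 49.0, 46.9 and 31.7 CPM in DMSO and 19.8, 19.2 and 6.90 CPM with JNJ, with replicate 3 lowest in both groups and no overlap (log2 -1.47, SE 0.452, adjusted p = 0.0242). Eme1 missed the threshold once JNJ 24 h replicate 3 (adjusted p = 0.084), DMSO 24 h replicate 1 (0.0659) or DMSO 24 h replicate 2 (0.053) was left out. Mus81, with overlapping libraries, was not called (log2 0.03, interval -0.41 to 0.47, adjusted p = 0.927). Of the 29 calls at 24 h, 18 held without any one library and under every other setting tried: Bard1, Blm, Brca1, Brca2, Chek1, Clspn, Exo1, Fancc, Fancd2, Fancl, Mre11a, Nbn, Rbbp8, Timeless, Tipin, Topbp1, Wee1 and Xrcc2. With the replicate block 33 members were lower, but the block shares its replicate term with the 2 h libraries. There the deviations of replicates 2 and 3 went with those of the same number (correlation 0.651 and 0.585), and those of replicate 1 did not (-0.00469).

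**Figure D3:**
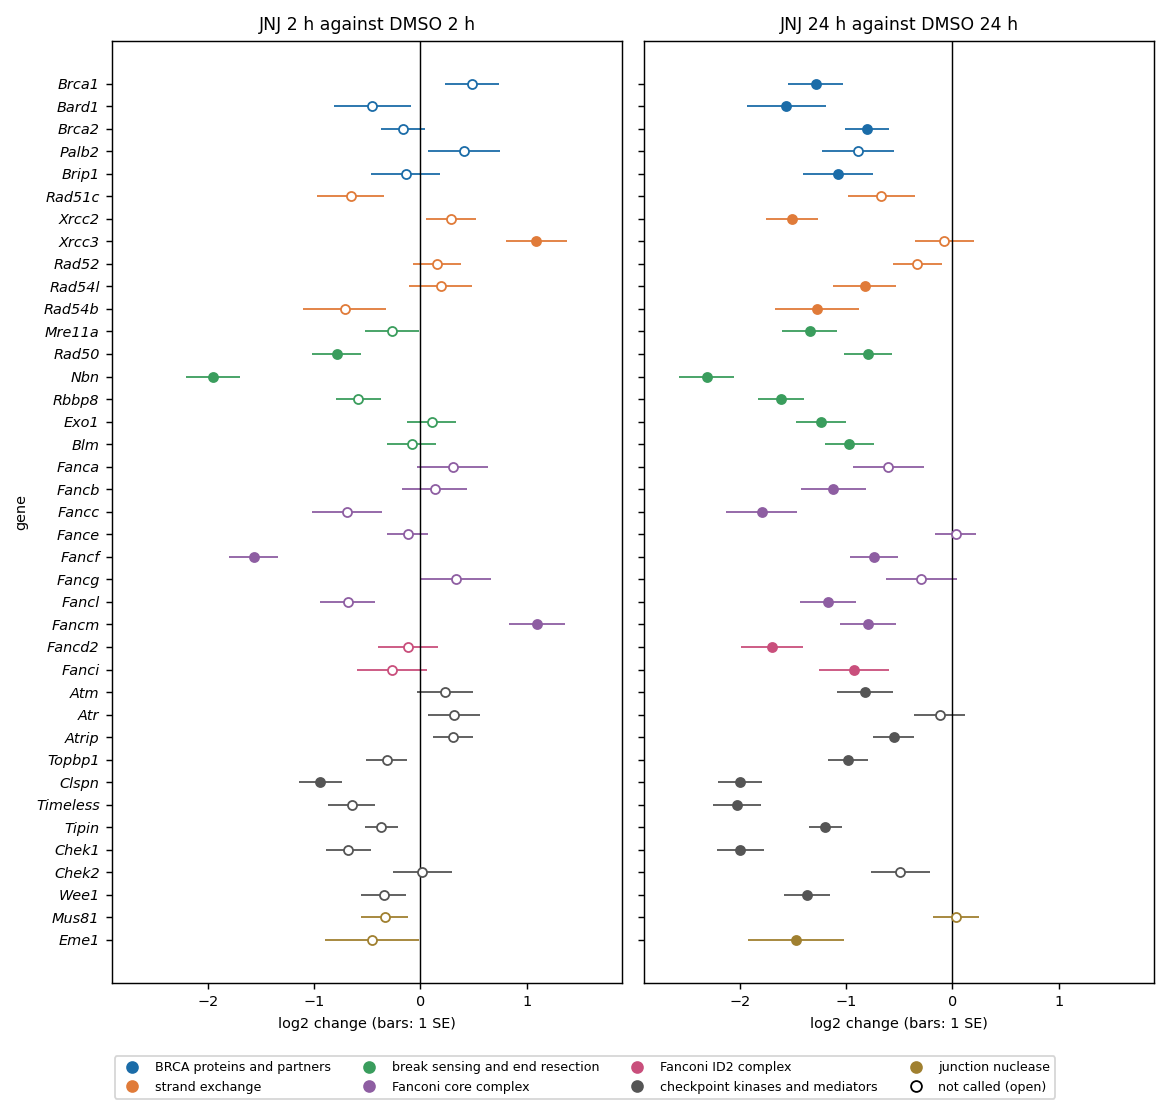
Log2 change of each of the 39 genes at 2 h and at 24 h of JNJ against DMSO of the same time, grouped by role, with bars of 1 SE on either side. At 24 h the values run from -2.31 (Nbn) to 0.03 (Mus81 and Fance), and filled symbols mark the genes called by edgeR, open symbols those not called.

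**Figure D4:**
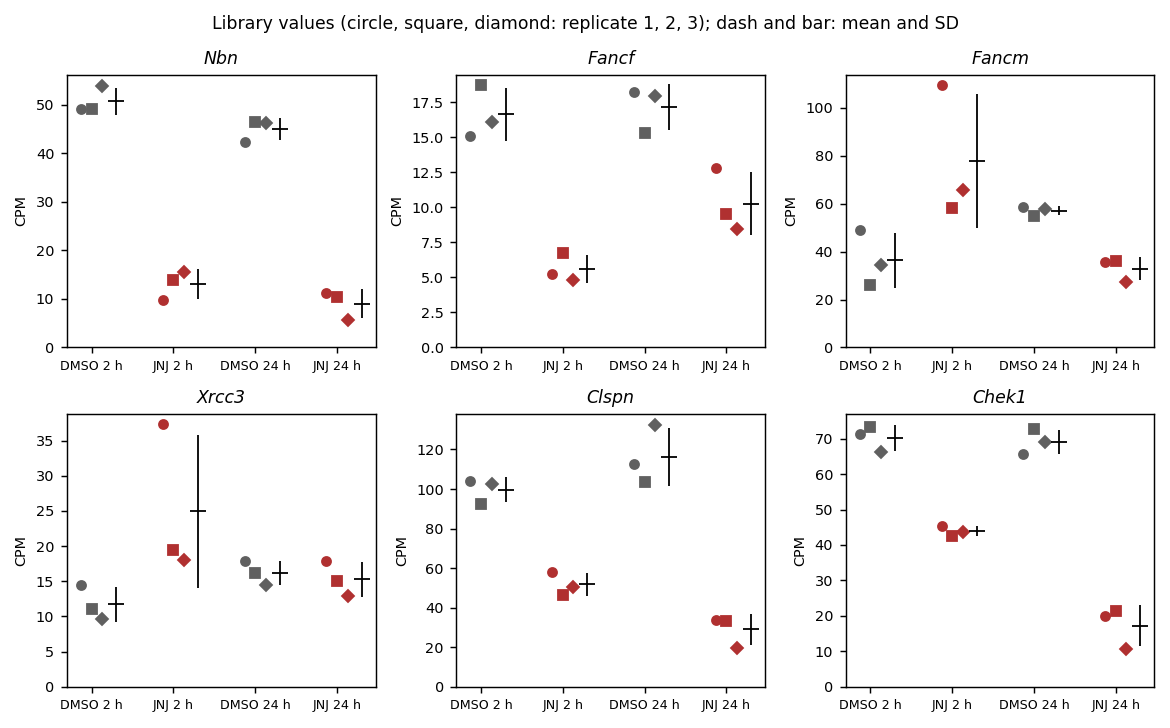
CPM of 6 of the genes in the 12 libraries of the drug experiment, one point per library (circle, square and diamond for replicates 1, 2 and 3), with a dash at each group's mean and a bar of 1 SD on either side. The Nbn points of JNJ lie between 5.56 and 15.6 at both times, below all DMSO points, which start at 42.4.

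The sequence around the start site was searched for E2F sites, the CCAAT box and a cell cycle word. RefSeq promoter windows (GRCm38.p6, 250 bases before to 50 after the start, 1 per gene) were found for 30 of the 39 genes. The genes without one were Rad50, Fancd2, Rbbp8, Wee1, Exo1, Xrcc2, Tipin, Rad54b and Nbn. All of these were called lower at 24 h, Nbn with the largest fall, while all 10 genes not called had a window. Shares and medians within the set therefore leave out part of the genes that fell. For E2F, a family of factors that switch on S-phase genes, 4 spellings of the site were searched on both strands, TTTCCCGC, TTTCGCGC, TTTGCCGC and TTTGGCGC. A word was found in 7 of 30 windows (23.3%), where 2.3% of 27025 promoters, 4.0% of the promoters of all genes tested in the drug experiment and 7.5% of those of genes called lower at 24 h held one. Within the set the word was in 4 of 20 genes called lower and in 3 of 10 not called, and the median log2 change at 24 h was -0.81 with the word and -0.89 without. The 60 bases around the word are shown for 4 of these 7 genes, whose log2 changes at 24 h run from -1.56 (Bard1) to -0.49 (Chek2), on the strand of the gene and with the word in capitals, where GCGGGAAA and GCGCGAAA are the words read from the other strand. The windows lie at chr1:71103148-71103207 (minus strand) for Bard1, chr5:110839805-110839864 (plus) for Chek2, chr5:150522427-150522486 (plus) for Brca2 and chr9:103305172-103305231 (plus) for Topbp1.
Bard1: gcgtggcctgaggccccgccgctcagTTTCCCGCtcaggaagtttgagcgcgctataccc
Chek2: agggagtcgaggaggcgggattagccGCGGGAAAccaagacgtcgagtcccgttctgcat
Brca2: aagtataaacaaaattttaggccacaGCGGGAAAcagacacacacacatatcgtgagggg
Topbp1: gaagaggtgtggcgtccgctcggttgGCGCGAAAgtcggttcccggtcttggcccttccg

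Of these 4 genes Bard1, Brca2 and Topbp1 fell at 24 h and Chek2 was not called. Counted from the start site, the word lies at -209 to -202 in Bard1, -152 to -145 in Chek2, -168 to -161 in Brca2 and -129 to -122 in Topbp1. The CCAAT box (CCAAT, both strands), the site of the factor NF-Y, was in 17 of 30 windows (56.7%), against 37.9% of all promoters and 38.7% of those of all genes tested. It was in 38.3% of the promoters of genes called lower at 24 h and 41.8% of those called higher. Within the set it was in 12 of 20 genes called lower and 5 of 10 not called. The median log2 change at 24 h was -0.828 with the box and -0.925 without. The cell cycle word TTTGAA was in 2 of 30 windows (6.7%), against 18.1% of all promoters and 11.0% of those of all genes tested. It was in 14.0% of the promoters of genes called lower at 24 h and 8.5% of those called higher. Within the set it was in 2 of 20 genes called lower, Bard1 and Eme1, and 0 of 10 not called. The median log2 change at 24 h was -1.52 for these 2 genes and -0.827 without the word. Timeless and Chek1, which with Clspn fell most at 24 h among the genes with a window, held none of the words searched. Clspn, the member with the lowest p-value at 24 h, is shown as an example of a promoter with a CCAAT box, here read as ATTGG from the other strand, at chr4:126556840-126556934 (plus strand), from -140 to -46.
Clspn: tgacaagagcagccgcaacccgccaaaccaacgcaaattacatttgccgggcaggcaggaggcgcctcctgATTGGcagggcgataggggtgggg

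After 2 h with JNJ most of the set was not called. 4 genes were lower and 2 higher of 39, and 33 were not called, where 4.59% of all genes were called lower and 9.11% higher. The libraries did not overlap for 12 of 39 genes, against 25.6% of all genes. The median log2 change was -0.17 (0.03 over all genes), and lay between -0.32 and -0.07 when 1 library was left out. 11 members had an unadjusted p under 0.05, as had 4199 of the 14467 genes. Members of the set also varied between the control libraries: the median against all DMSO libraries was 0.07, -0.23 and -0.50 in DMSO 2 h replicates 1, 2 and 3.

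Nbn was already low at 2 h, with 49.1, 49.1 and 53.8 CPM in DMSO and 9.69, 13.9 and 15.6 CPM with JNJ. The groups lay far apart (log2 -1.96, SE 0.254, adjusted p = 0.000657). Fancf, a small core subunit with a single exon, had 15.1, 18.7 and 16.1 CPM in DMSO and 5.27, 6.73 and 4.79 CPM with JNJ (log2 -1.57, SE 0.231, adjusted p = 0.00126). The Fancf libraries of JNJ at 24 h were higher again, at 12.8, 9.51 and 8.47 CPM, above all 3 JNJ libraries of 2 h. Clspn had 104, 92.4 and 102 CPM in DMSO and 58.2, 46.6 and 50.6 CPM with JNJ (log2 -0.94, SE 0.202, adjusted p = 0.00909). These 3 calls held without any one library and under every other setting tried. Rad50 had 66.6, 45.0 and 33.1 CPM in DMSO and 29.1, 31.9 and 22.7 CPM with JNJ, a narrow gap between the groups (log2 -0.79, SE 0.226, adjusted p = 0.0351). At 2 h Rad50 missed the threshold with JNJ 2 h replicate 1 (adjusted p = 0.0885) or 3 (0.0656), or DMSO 2 h replicate 1 (0.135) or 2 (0.0651), left out. It also missed it with the 2 h groups fitted alone (adjusted p = 0.159) and with library totals only (0.055).

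Both genes that rose at 2 h did so by about the same factor. Fancm had 48.9, 26 and 34.4 CPM in DMSO and 109.7, 58.2 and 65.6 CPM with JNJ, with the highest DMSO and the highest JNJ value in replicate 1 (2.14-fold, log2 1.10, SE 0.263, adjusted p = 0.0159). Xrcc3 had 14.4, 11.1 and 9.58 CPM in DMSO and 37.4, 19.4 and 18.0 CPM with JNJ (2.13-fold, log2 1.09, SE 0.284, adjusted p = 0.0235). Fancm missed the threshold with JNJ 2 h replicate 1 (log2 0.76, adjusted p = 0.0787), DMSO 2 h replicate 2 (0.0792) or DMSO 2 h replicate 3 (0.0533) left out. So did Xrcc3, with JNJ 2 h replicate 1 (log2 0.67, adjusted p = 0.118), DMSO 2 h replicate 2 (0.0885) or DMSO 2 h replicate 3 (0.0804) left out. Neither was called when the 2 h groups were fitted alone (adjusted p = 0.0894 for Fancm and 0.108 for Xrcc3). Chek1 was short of a call at 2 h (log2 -0.68, SE 0.212, adjusted p = 0.0505), with 71.3, 73.1 and 66.1 CPM in DMSO and 45.3, 42.5 and 43.7 CPM with JNJ and no overlap. It was called lower with RLE or upper-quartile scaling, with no filter or a stricter one, with DESeq2, with the replicate block and with all 21 libraries in 1 fit (adjusted p = 0.0128 to 0.0438). Timeless, Rbbp8 and Fancl were called lower at 2 h with DESeq2 (adjusted p = 0.0262, 0.0394 and 0.0447) and with all 21 libraries in 1 fit (0.025, 0.0329 and 0.0437).

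The response at 24 h was lower than that at 2 h in 7 genes, by the test of the difference itself. The difference of the log2 changes was negative in 36 of 39 genes, with a median of -0.94 (-0.05 over all genes). Of the 39, 7 were called lower and none higher, where 1.73% of all genes were called lower and 2.51% higher. The difference takes in the change between the DMSO controls, with a median log2 of 0.42 over the set. The part of that change in this result was not tested. The 7 were Fancm (-1.89, SE 0.371, adjusted p = 0.0184), Xrcc2 (-1.80, SE 0.338, adjusted p = 0.016), Brca1 (-1.77, SE 0.361, adjusted p = 0.0204), Fancd2 (-1.58, adjusted p = 0.0458), Timeless (-1.38, adjusted p = 0.0304), Exo1 (-1.34, adjusted p = 0.0378) and Chek1 (-1.32, adjusted p = 0.0307). Brca1 was not called at 2 h and fell at 24 h: at 2 h it had 117, 87.9 and 79.4 CPM in DMSO and 174, 121 and 103 CPM with JNJ, which overlap, and at 24 h it was lower with JNJ in every library. Xrcc2 had 42.25, 40.6 and 28.1 CPM in DMSO and 57.0, 47.1 and 31.4 CPM with JNJ at 2 h, where the groups overlapped. Fancd2 overlapped at 2 h as well, with 113, 73.3 and 68.15 CPM in DMSO and 98.1, 70.25 and 66.3 CPM with JNJ. Fancm, higher at 2 h, had 58.7, 54.9 and 57.9 CPM in DMSO and 35.7, 35.9 and 27.3 CPM with JNJ at 24 h, so its JNJ libraries lay above DMSO at the first time and below it at the second.

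For Exo1 the groups overlapped at 2 h, with 141, 134.5 and 143 CPM in DMSO and 168, 115 and 167 CPM with JNJ. At 24 h Exo1 had 201.5, 154 and 167 CPM in DMSO and 97.3, 74.9 and 49.35 CPM with JNJ, and did not overlap. Timeless was below DMSO in every JNJ library of both times, by a wider gap at 24 h. It had 114, 111 and 80.4 CPM in DMSO and 69.9, 72.6 and 51.9 CPM with JNJ at 2 h, and 135.5, 128 and 116 CPM against 32.1, 39.2 and 21.7 CPM at 24 h. Nbn, lower at both times, had no called difference between them (-0.36, SE 0.348, adjusted p = 0.59). By sign, 15 genes were above DMSO at 2 h and below it at 24 h, and 4 were called lower at both times, Nbn, Fancf, Clspn and Rad50. In place of 7 genes called lower in the difference there were 2 with DMSO 24 h replicate 1 or DMSO 2 h replicate 2 left out, and 3 with JNJ 24 h replicate 3, DMSO 24 h replicate 3 or DMSO 2 h replicate 3 left out. With DMSO 24 h replicate 2 or JNJ 2 h replicate 2 left out there were 4, and Xrcc2 alone was called in every case.

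The DMSO controls of the 2 times were compared as well. None of the 39 genes was called between DMSO at 24 h and at 2 h, nor was any of the 14467 genes tested (0%), but 32 of 39 were higher at 24 h by sign, with a median log2 of 0.42 (-0.01 over all genes). The libraries did not overlap for 19 of 39 genes, where 17.2% of all genes did not. At an unadjusted p under 0.05 there were 10 members and 1417 genes in all with edgeR, and DESeq2 called no member. The lowest p-value was that of Fanca, with 28.7, 14.1 and 21.4 CPM at 2 h and 67.2, 43.1 and 44.2 CPM at 24 h (log2 1.27, SE 0.337, adjusted p = 0.507). Without DMSO 2 h replicate 3 the median of the set was 0.26. Across 13796 genes with a known length, the rank correlation of a library's deviation from the DMSO mean with transcript length was 0.127, -0.327 and -0.184 in DMSO 2 h replicates 1, 2 and 3, and 0.163, 0.199 and 0.172 in DMSO 24 h replicates 1, 2 and 3. The median transcript of the set has 3750 bases and that of all tested genes 3149, and the part of length in this result was not tested. The JNJ libraries had 0.069, -0.131 and -0.043 at 2 h and 0.058, 0.029 and 0.088 at 24 h.

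With the hairpins no member was called in any comparison. Against shLuc, shHdac1 had 0 of 39 genes called (0.749% of 13612 genes), a median log2 of 0.09 and 2 genes whose libraries did not overlap (16.7% of all genes), and 1 member and 1687 genes had an unadjusted p under 0.05. shHdac2 had 0 called (1.68% of all genes), a median of -0.06 and 7 genes with no overlap (21.2% of all genes), and 1 member and 2158 genes had an unadjusted p under 0.05. Between shHdac1 and shHdac2, 0 were called (2.06% of all genes) and 7 did not overlap (26.7% of all genes), with a median of 0.11, and 3 members and 1948 genes had an unadjusted p under 0.05. DESeq2 called no member against shLuc, and Atm alone between the hairpins. The comparisons of each hairpin with shLuc share the shLuc libraries.

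Atm had the lowest p-value for shHdac1. Its libraries had 119, 111 and 138 CPM in shLuc, 139.7, 150.6 and 150.1 CPM in shHdac1 and 111, 110.8 and 118 CPM in shHdac2. The shHdac1 libraries lay above all others (log2 0.26 against shLuc, interval 0.08 to 0.44, adjusted p = 0.268, and 0.37 against shHdac2, interval 0.19 to 0.56, adjusted p = 0.0747). With a replicate block, Atm was called higher in shHdac1 than in shHdac2 (adjusted p = 0.0295). Between these groups replicates 1 and 2 also correlated with each other, up to 0.581, and replicate 3 correlated positively with replicate 3 alone. Without shLuc replicate 3 Atm was called against shLuc (log2 0.35, adjusted p = 0.019). Chek1 had the lowest p-value for shHdac2, with 45.9, 48.5 and 69.0 CPM in shLuc and 40.4, 39.1 and 41.3 CPM in shHdac2. The highest shHdac2 library was below the lowest of shLuc, of which replicate 3 stood apart (log2 -0.44, interval -0.74 to -0.13, adjusted p = 0.204, and -0.22 without shLuc replicate 3).

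Nbn, Timeless and Clspn, among the genes that fell most with JNJ at 24 h, had intervals that included no change in the hairpin cells. Chek1, with a like fall at 24 h, is given above, and its interval in shHdac2 excluded no change. For Nbn the log2 change was -0.02 in shHdac1 (interval -0.34 to 0.31) and -0.15 in shHdac2 (interval -0.47 to 0.18). For Timeless it was 0.19 in shHdac1 (interval -0.13 to 0.51) and -0.06 in shHdac2 (interval -0.38 to 0.26), and for Clspn 0.17 (interval -0.08 to 0.43) and 0.10 (interval -0.15 to 0.36). The drug and hairpin libraries were fitted and scaled apart and differ in virus and selection, and the difference between drug and hairpin was not tested.

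**Figure D5:**
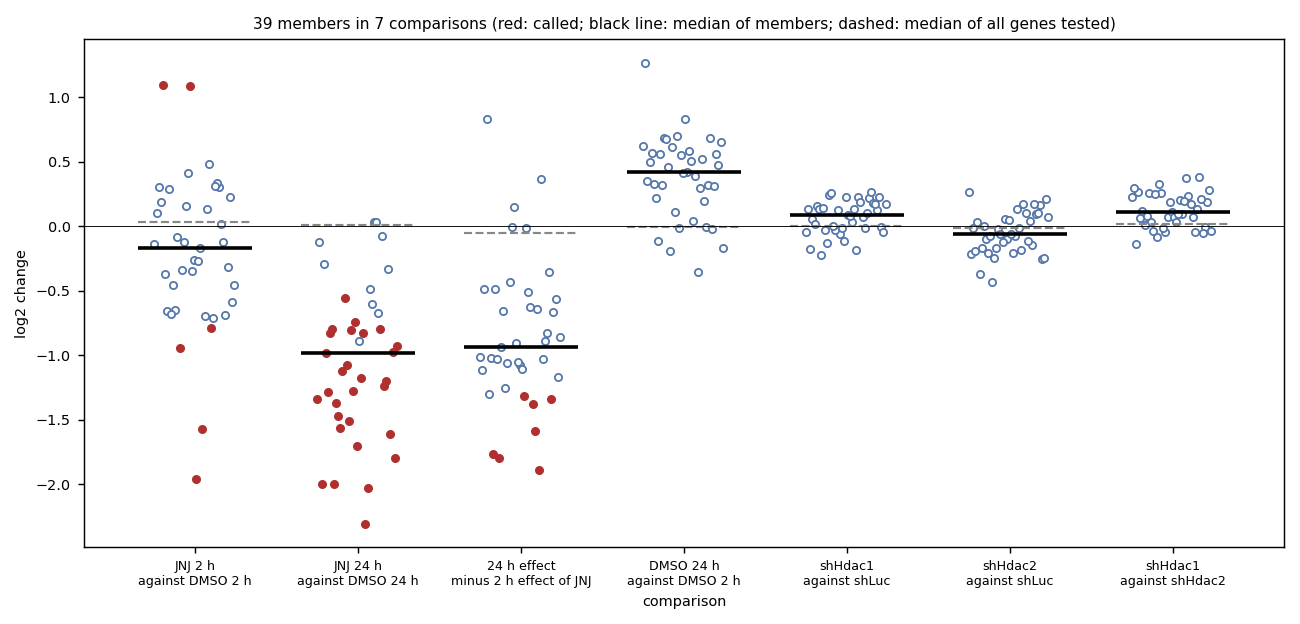
Log2 change of the 39 genes in each of the 7 comparisons, one point per gene, with the median of the set and of all genes tested. The median is -0.98 for JNJ at 24 h and lies between -0.06 and 0.11 for the 3 hairpin comparisons.

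Other genes of the same pathways, listed apart from the set, moved in part at 24 h. Of 56 tested, 24 were lower (42.9%) and 2 higher (median log2 -0.51), where 15.1% of all genes were called lower and 18.1% higher. Among 24 further homologous recombination genes 10 were lower and 1 higher (median -0.53). The nuclease gene Dna2, which takes part in long-range resection, fell most clearly (log2 -2.39, SE 0.224, adjusted p = 3.56e-05), then Rpa2, a subunit of the protein that coats single strands (log2 -1.21, adjusted p = 0.00111), and Rad51d rose (log2 0.66, adjusted p = 0.0473). Among 13 further Fanconi genes 4 were lower and 1 higher (median -0.27), with Usp1, which takes ubiquitin off FANCD2 (log2 -1.04, adjusted p = 0.000996), and Apitd1, a partner of FANCM (log2 -1.29, adjusted p = 0.00185), lower and Mad2l2 higher (log2 0.51, adjusted p = 0.0192). Among 19 further checkpoint genes 10 were lower and none higher (median -0.70), led by Cdc25a, the phosphatase that CHK1 restrains (log2 -1.22, adjusted p = 0.000206), and Rif1, which shields broken ends (log2 -1.01, adjusted p = 0.00156).

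Repair pathways that do not copy a sister were listed as well, and 15.1% of all genes were called lower and 18.1% higher at 24 h. The share called lower was 10% in end joining, 0% in nucleotide excision repair, 33.3% in base excision repair and 57.1% in mismatch repair. Of 10 end joining genes 1 was lower and none higher (median log2 -0.21), Xrcc5, which encodes KU80 (log2 -0.51, adjusted p = 0.0261). Of 18 nucleotide excision repair genes none was lower and 1 higher (median -0.09), Ddb2, a damage sensor gene (log2 1.2, adjusted p = 0.0438). Of 15 base excision repair genes 5 were lower and none higher (median -0.52), with Ung, the uracil glycosylase gene (log2 -1.44, adjusted p = 0.000412), and Parp2 (log2 -1.05, adjusted p = 0.00106) the clearest. Of 7 mismatch repair genes 4 were lower and 1 higher (median -0.77), with Pms2 (log2 -0.88, adjusted p = 0.00177) and Pms1 (log2 -0.77, adjusted p = 0.0147) lower and Mlh3 higher (log2 0.71, adjusted p = 0.0267).

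The genes of the replication helicase and polymerases fell as a whole: 28 of 28 were lower at 24 h (median log2 -1.26), with Mcm3 at -1.99 (adjusted p = 5.16e-05) and Mcm5 at -1.83 (adjusted p = 0.000115). At 2 h none of these 28 was called (edgeR), with 8 at an unadjusted p under 0.05 and a median of -0.28. Over all genes at 2 h, 4.59% were called lower and 9.11% higher, and 4199 of 14467 had an unadjusted p under 0.05. These values stand beside the fall of the 39 genes, and the part of the share of cells in S phase in that fall was not tested. The differences between these lists and the set were not tested.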

How the data were processed

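RNA of 21 libraries was sequenced as single-end reads of stranded mRNA libraries, per the labels' protocols. The submitters' processing notes name the aligner STAR 2.5.1b and the build mm9. Raw counts were deposited, with 1 column for each library and 1 row for each gene symbol. Since annotation, strand and multi-mapped reads of the counting are not given in the sources, genes that share exons with a neighbour are uncertain. The 39 genes and the other gene lists were chosen with earlier results of these data known.

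With edgeR 4.0.16 (R 4.3.3), 1 fit was made for the 12 drug libraries and another for the 9 hairpin libraries, with group as the only term. filterByExpr (minimum count 10) left 14467 and 13612 genes. TMM factors were 0.883 to 1.15 and 0.961 to 1.03. The quasi-likelihood test was two-sided, with Benjamini-Hochberg adjustment over every gene of a fit. Called means an adjusted p under 0.05. CPM are scaled within each fit. Intervals are the log2 change plus or minus 2 SE. Levels per kilobase use the longest GENCODE M21 basic transcript. Promoter windows are RefSeq's (GRCm38.p6), another build than the counts, and are matched by symbol. Printed windows hold at most 30 bases that GENCODE annotates as UTR.

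Libraries of the same number deviated together at 24 h (correlation of deviations 0.566 to 0.656 in every pair). Unlike numbers gave -0.447 to -0.178 there. In the hairpin groups same numbers gave 0.245 to 0.798. Unlike numbers reached 0.581 between replicates 1 and 2, so the number did not set these apart from each other. Replicate 3 gave 0.352 to 0.798 with replicate 3 and -0.699 to -0.264 with the other numbers, so it was set apart. At 2 h (-0.00469 to 0.651) and between the DMSO times (-0.219 to 0.575) the numbers were not taken as pairs. The replicate block is a single term shared by all libraries of a fit, of both times in the drug experiment. Alternatives were RLE, upper-quartile and total scaling, no filter or a stricter one (1 CPM), DESeq2 1.42.0, a replicate block, other sets of libraries in the fit, and leaving out each library. Library values at 24 h are given for the 2 called genes of lowest p and, in roles of more than 2 genes, the gene of highest p, elsewhere for each called gene or that of lowest p, and from each other list the 2 called genes of lowest p in each direction are named. Chek1 and Brca1 at 2 h, Nbn in the difference between times, the other 24 h genes given with a change only, and the hairpin intervals of Nbn, Timeless and Clspn were added beyond this rule.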

Additional observations from a re-analysis of the deposited data

Results flagged for a closer look

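The effect of JNJ differed between 24 h and 2 h in 7 genes by edgeR's test of the difference. On the log2 scale the 24 h effect minus the 2 h effect was -1.80 for Xrcc2, -1.89 for Fancm, -1.77 for Brca1, -1.38 for Timeless, -1.32 for Chek1, -1.34 for Exo1 and -1.58 for Fancd2. Groups of 3 libraries are too small for the test of a single library far from the others, which was not run.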

How the results depend on the processing

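The 29 lower calls at 24 h were 18 to 26 with 1 library left out, 19 with library totals alone, and 23 to 33 under the other settings, with no member higher in any. The 6 calls at 2 h were 3 to 6 with 1 library left out, 3 without DMSO 2 h replicate 2 or JNJ 2 h replicate 1, 10 with DESeq2, 11 with the replicate block, 3 with the compared groups only and 10 with all 21 libraries in 1 fit. The 7 genes whose effect differed between times were 2 to 10 with 1 library left out, 3 with upper-quartile scaling, 3 with library totals, 12 with DESeq2, 23 with the replicate block and 19 with all 21 libraries, where Fancf alone was higher. Between the DMSO times the replicate block called 2 members, Atr (adjusted p = 0.0491) and Fanca (log2 1.29, adjusted p = 0.0164). Between shHdac1 and shHdac2 the count of 0 was 1 (Atm) with upper-quartile scaling, library totals, DESeq2, the replicate block or the compared groups only. For shHdac1 against shLuc it was 0 to 1 with 1 library left out, and for the other hairpin comparisons and the DMSO times 0 in each such case. The replicate block changed no other call of a hairpin comparison. Its counts rest on same-numbered libraries being pairs. The deviations did not show this for replicate 1 at 2 h or between the DMSO times. In the hairpin groups they set replicate 3 apart, but not replicates 1 and 2 from each other. No called value changed sign under any setting run. The cause of these changes was not tested.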
